A study of Mus musculus with 10 samples.

Results

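*Creb5*, *Erg* and *Gdf5* are 3 of the 29183 genes listed for both cell lineages of the study. They were chosen by name as regulators of joint formation, with earlier results of these data known. Their UMIs, molecules counted once by a unique molecular identifier, were followed in single cells sorted into 96-well plates, on 8 *Grem1*-lineage plates (numbered 1, 2, 4, 5, 6, 7, 8 and 9) and 2 *Lepr*-lineage plates. *Grem1-TdT* mice of the C57BL/6 strain carry a tamoxifen-inducible Cre under *Grem1* and a TdTomato reporter, and received tamoxifen chow for 2 weeks from 5 to 6 weeks of age. Their articular cartilage (AC) and growth plate (GP) were excised and live TdTomato+ cells were sorted. *Lepr-TdT* mice of matched age and the same strain, whose *Lepr-cre* acts without induction, gave TdTomato+ cells of whole bones that were negative for CD45, Ter119 and CD31. The treatment text names tamoxifen for *Grem1-TdT* mice, while the overall design text names it for both lines. Tissue, digestion and gate therefore differed along with the lineage and cannot be told apart from it. Which plates hold AC or GP cells, and how many mice stand behind a plate, is not given (cells of several individuals were grouped), so p-values over plates measure the spread between these plates, which may be technical. The paper states that cells were placed in plates at random against batch effects, without saying whether AC and GP cells shared a plate.

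*Gdf5* encodes a secreted ligand of the BMP family that marks the interzone of developing synovial joints, and signals through type I receptors such as BMPR1B and BMPR1A with type II receptors. *Erg* encodes an ETS-family transcription factor found in the joint interzone and in articular cartilage, and is also a well-known gene of endothelial cells. *Creb5* encodes a bZIP transcription factor related to ATF2 and ATF7 that is known from the superficial zone of articular cartilage, where it takes part in the expression of lubricin. Growth plate chondrocytes, by contrast, mature and are replaced by bone.

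*Creb5* lies on chromosome 6 of GRCm38 (53287270 to 53700376, plus strand), *Erg* on chromosome 16 (95359169 to 95586593, minus strand) and *Gdf5* on chromosome 2 (155941023 to 155945367, minus strand), and all are annotated as protein coding. An snRNA gene, *Gm25818*, overlaps an exon of *Creb5*, and *Gm15557*, on the opposite strand, overlaps an exon of *Gdf5*. Neither had a UMI in kept cells of any group. Whether reads over an overlap were lost to the members was not tested, and whether the counting used strand is not given.

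Promoters of *Creb5* and *Erg*, the members detected on every *Grem1*-lineage plate, are shown because *CREB* and ETS proteins bind short known motifs. Of the members, 2 matched the RefSeq promoter table (GRCm38.p6, from 250 bases before to 50 after a start). Capitals mark the cAMP response element TGACGTCA in the first *Creb5* promoter (chr6:53287053-53287352, plus strand), the AP-1 motif TGANTCA in the second (chr6:53573124-53573423, plus strand) and the ETS motif AGGAAG, present as its reverse complement, in the third *Erg* promoter (chr16:95459299-95459598, minus strand).
*Creb5* promoter 1: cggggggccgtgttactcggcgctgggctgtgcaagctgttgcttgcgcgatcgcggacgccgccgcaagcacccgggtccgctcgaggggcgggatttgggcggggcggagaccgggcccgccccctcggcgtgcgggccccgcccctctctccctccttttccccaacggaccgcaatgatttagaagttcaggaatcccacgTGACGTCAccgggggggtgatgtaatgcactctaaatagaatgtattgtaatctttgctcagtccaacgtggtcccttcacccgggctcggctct
*Creb5* promoter 2: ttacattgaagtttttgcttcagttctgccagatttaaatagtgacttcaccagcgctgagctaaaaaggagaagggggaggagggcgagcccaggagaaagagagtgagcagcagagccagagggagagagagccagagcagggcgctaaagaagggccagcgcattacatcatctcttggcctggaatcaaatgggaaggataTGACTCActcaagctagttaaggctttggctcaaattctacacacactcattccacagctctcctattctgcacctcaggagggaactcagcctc
*Erg* promoter 3: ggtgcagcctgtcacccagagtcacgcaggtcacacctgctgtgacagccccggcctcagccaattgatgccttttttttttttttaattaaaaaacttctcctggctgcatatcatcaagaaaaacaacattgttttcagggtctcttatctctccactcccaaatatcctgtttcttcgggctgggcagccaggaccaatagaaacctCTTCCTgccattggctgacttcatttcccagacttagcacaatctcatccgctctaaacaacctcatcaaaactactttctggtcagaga
The cAMP response element starts 45 bases before the first *Creb5* start, the AP-1 motif 45 bases before the second, and the ETS motif 40 bases before the third *Erg* start. Searched on both strands, these letters were found in 1.79%, 7.81% and 35.4% of the 32851 promoters of the table. The 2 other *Erg* promoters hold none of the 3 motifs. A match is a description of the sequence only, and the counts do not say from which start a transcript came.

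Wells in which 350 or more genes were detected entered the analysis, 684 of 768 wells in the *Grem1* lineage and 160 of 162 in the *Lepr* lineage. A plate summed to between 133289 and 179071 UMIs in the *Grem1* lineage and to 64310 and 59981 among *Lepr*-lineage cells, counting shared genes only. The same 96 well barcodes were used on all 8 *Grem1*-lineage plates. *Grem1*-lineage cells were divided by 4 transcripts. Cells with more *Clu*, *Cilp* and *1500015O10Rik* UMIs together than *Cnmd* UMIs are called articular-side (414 cells), and the others *Cnmd*-side (270 cells). The median cell held 1217 UMIs on the articular side, 2218.5 on the *Cnmd* side and 505 in the *Lepr* lineage, so shares of cells with a transcript are also given at equal depth. *Cnmd* encodes chondromodulin, and *Clu* and *Cilp* encode clusterin and a matrix protein of the intermediate layer of articular cartilage. The groups are named by this split and not by tissue.

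The groups were set against listed marker genes. Both held chondrocyte genes, which summed to between 183900 and 225100 CPM (UMIs of each 1000000 in a sum) in the articular-side sums and between 136700 and 173400 CPM in the *Cnmd*-side sums, while the *Lepr*-lineage plates had 150 and 7028 CPM. In these sums *Cytl1* alone had means of 140300 CPM on the articular and 23130 CPM on the *Cnmd* side. Of the 11 chondrocyte genes tested, 3 were higher on the articular side and 7 lower, where 20% of all genes tested were higher and 21.5% lower. Of 7 listed articular cartilage markers, 6 were tested between the sides and 5 were higher on the articular side, among them *Gas1* and *Angptl7*. *Epyc*, the one growth plate marker listed, had a mean of 55.9 CPM on the articular side and 1182 CPM on the *Cnmd* side. Genes of synovial, tendon and ligament fibroblasts differed with the split. The 9 listed of 12 summed to between 20500 and 58770 CPM in the articular-side sums and to between 5127 and 13620 CPM in the *Cnmd*-side sums. Of the 4 tested 2 were higher and none lower on the articular side, and 1 was higher with the plate as a replicate block. *Dcn*, which cartilage also makes, had means of 19620 and 1922 CPM. *Col1a2* was also called (3727 and 1316 CPM), but not with the plate as a replicate block (edgeR adjusted p = 0.057). The 2 others tested were not called, *Col1a1* (4215 and 1247 CPM, higher on 4 plates) and *Fmod* (3241 and 4360 CPM, higher on 1). Among those the filter removed, *Col3a1* (126 and 11.4 CPM, higher on 8 of 8 plates) and *Dpt* (112 and 8.10 CPM, on 7) were higher on the articular side. *Cd248* and *Clec3b* were at 0 in both. Osteoblast genes reached 37540 and 37440 CPM on the articular side of plates 5 and 7, against 142 to 3805 CPM on the other plates. On the *Cnmd* side they reached 23140 CPM on plate 9, against 602 to 5283 CPM on the others. The part of these cells in the results below was not tested, apart from values given beside them.

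*Creb5* was detected on the articular side of every plate. In the articular-side sums of the 8 plates it had a lowest level of 234 CPM (plate 6), a median of 406 CPM and a highest of 456.5 CPM (plate 5). The *Cnmd*-side sums had a lowest of 0, a median of 27.3 and a highest of 47.0 CPM. In the *Lepr* lineage it had 0 CPM on plate 1 and 50.02 CPM on plate 2, from 3 UMIs. The articular-side sums thus lay above all other sums, while the *Cnmd*-side and *Lepr*-lineage sums overlapped. In such sums, fewer cells with a transcript and less RNA per cell cannot be told apart.

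As means, *Creb5* stood at 386 ± 77.8 CPM (SD, n = 8 plates) in articular-side and 24.01 ± 17.24 CPM in *Cnmd*-side cells. Its log2 fold change was 4.22 (SE 0.33, edgeR quasi-likelihood test, Benjamini-Hochberg adjusted p = 3.4e-09), the third largest among the 213 genes called higher. *Creb5* was higher on 8 of 8 plates, and flipping signs over plates in an exact two-sided permutation test gave p = 0.0078, the smallest that 8 plates allow. The share of genes called higher on the articular side was 20% of the 1065 genes tested, and that called lower was 21.5%. With library totals in place of TMM factors the median log2 fold change of all genes moved from -0.01 to -0.35 and the calls from 213 higher and 229 lower to 123 higher and 390 lower. *Creb5* had a log2 fold change of 3.90 there.

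**Figure D1:**
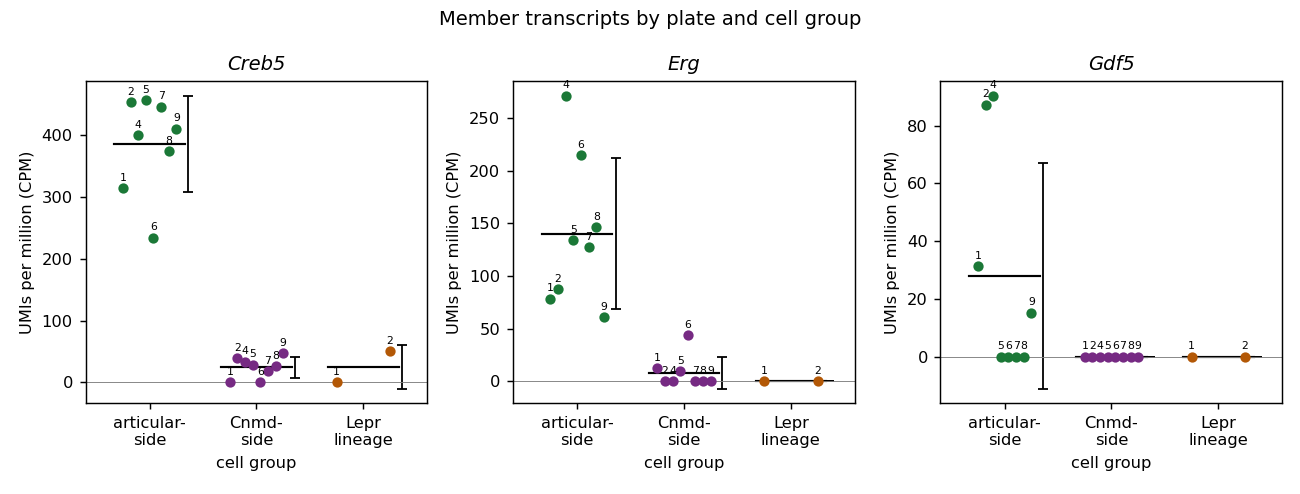
Level of each member (CPM over the genes listed for both lineages, linear axis) in the articular-side and *Cnmd*-side sums of the 8 *Grem1*-lineage plates and in the 2 *Lepr*-lineage plates. Points are plates, labelled with their number, bars are means and whiskers the SD. *Creb5* has its 8 articular-side points between 234 and 456.5 CPM and all others at 50.02 CPM or below.

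A *Creb5* UMI was found in 132 of 414 articular-side cells (31.9%, 95% Clopper-Pearson interval 27.4 to 36.6%), in 16 of 270 *Cnmd*-side cells (5.93%, 3.43 to 9.45%) and in 3 of 160 *Lepr*-lineage cells (1.88%, 0.388 to 5.38%). Intervals of this kind cover counting error only. The 16 *Cnmd*-side cells had 1 UMI each. On the articular side 82 cells had 1 UMI, 34 had 2 and 16 had 3 or more, up to 7 in 1 cell. With every cell thinned to 529 UMIs, which left out 83 of the *Lepr*-lineage cells and 1 on each side of the split, the shares were 18.6% on the articular side, 1.86% on the *Cnmd* side and 1.30% in the *Lepr* lineage. No correction for RNA carried over from other wells was applied, and its part in these low shares was not tested.

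*Erg* was also higher on the articular side. Its articular-side sums had a lowest level of 60.9 CPM (plate 9), a median of 131 CPM and a highest of 271 CPM (plate 4). On the *Cnmd* side 5 of the 8 plates had no *Erg* UMI, and the highest was plate 6 with 43.7 CPM, from 4 UMIs. No *Erg* UMI was found on the *Lepr*-lineage plates. Every articular-side sum lay above every *Cnmd*-side sum, though the lowest and the highest of these were 60.9 and 43.7 CPM, and at equal depth they overlapped.

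The means were 140 ± 71.5 CPM and 8.22 ± 15.2 CPM (SD, n = 8 plates). Since the filter on low counts removed *Erg* from the fit over all genes, an exact two-sided permutation test that flips signs over plates is its main test. On the log2(CPM + 1) scale the mean difference was 5.40, higher on 8 of 8 plates (exact permutation p = 0.0078, the smallest possible). Sums of *Creb5* and *Erg* did not overlap between the sides, which holds for 0.639% of the 12510 genes with a UMI, and for 3.43% of the 1955 genes with at least as many UMIs as *Erg*. An *Erg* UMI was found in 64 of 414 articular-side cells (15.5%, 12.1 to 19.3%) and in 5 of 270 *Cnmd*-side cells (1.85%, 0.604 to 4.27%). By plate the articular-side share ran from 3.85% (plate 1) to 26.5% (plate 4).

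Because *Erg* is also an endothelial gene, and the *Grem1*-lineage sort had no CD31 gate, endothelial markers were read in the same cells. The 64 articular-side cells with *Erg* held 2 UMIs of the 10 listed endothelial markers, 1 of *Eng* and 1 of *Cd34*, and none of *Cdh5*, *Cldn5*, *Emcn* or *Egfl7*. In the 350 articular-side cells without *Erg* the list had 19 UMIs, of which *Cdh5* had 1 and *Eng* 11. These 4 markers held 1 UMI in the 350 cells, so their 0 in 64 cells does not tell the groups apart, and the part of endothelial cells in the *Erg* counts was not tested. Summed over the list, the level was at most 122 CPM in any articular-side sum and 51.8 CPM in any *Cnmd*-side sum.

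*Gdf5* was rare. Its 15 UMIs in kept cells came from 13 cells, all articular-side, and by plate they gave 31.4 CPM (plate 1), 87.2 CPM (plate 2), 90.4 CPM (plate 4), 15.2 CPM (plate 9) and 0 on plates 5, 6, 7 and 8. No UMI was found in 270 *Cnmd*-side cells, nor in 160 *Lepr*-lineage cells. At 3 cells of the total, these counts of 0 allow up to 1.11% and 1.88% of cells with a UMI at the depth of those cells, which does not limit the share of cells that express the gene. The articular-side share was 3.14% (1.68 to 5.31%). Groups overlapped at 0 on 4 plates. With no minimum of detected genes a *Cnmd*-side sum reached 12.85 CPM, from 1 UMI in a well that was otherwise left out. With *Clu* left out of the split a *Cnmd*-side sum reached 12.89 CPM, so the side of single UMIs depended on the split.

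The mean on the articular side was 28.0 ± 39.1 CPM (SD, n = 8 plates). The exact two-sided permutation test over plates gave a mean log2(CPM + 1) difference of 2.75 with p = 0.125, which does not pass 0.05, with 4 plates higher and 4 equal. The pooled articular-side level was 6.16-fold a floor of 3 UMIs over the *Cnmd*-side cells, 4.07-fold without plate 2 and 3.50-fold without plate 4. These ratios leave out the counting error of the articular-side level (Poisson interval 15.85 to 46.7 CPM) and its spread between plates. On plates 5 to 9 the pooled level of 3.02 CPM was below the 4.60 CPM that the floor makes over all *Cnmd*-side cells. An edgeR fit without the filter on low counts called 3.07% of 12510 genes higher, *Gdf5* among them (log2 fold change 4.19, adjusted p = 0.00098), and the fit with the plate as a replicate block did too (4.01, adjusted p = 0.011). Without the filter, however, the adjusted p of *Col1a1*, whose sums run from 38.7 to 21690 CPM on the articular side, fell from 0.117 to 1.2e-20, so its p-values are too small where plates spread widely and its calls are not used. DESeq2 without the filter gave *Gdf5* an adjusted p of 0.214.

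Plates 1, 2 and 4 held 14 of the 15 *Gdf5* UMIs and 12 of the 13 cells. There 12 of 170 articular-side cells had *Gdf5* (7.06%, 3.70 to 12.0%), against 1 of 244 on plates 5 to 9 (0.410%, 0.0104 to 2.26%). The median articular-side cell had 1158 UMIs on plates 1, 2 and 4 and 1278.5 on the others. *Creb5*, with 388 and 396 CPM, and *Erg*, with 156 and 133 CPM, were at similar pooled levels on both sets of plates, with overlapping counting intervals. These sets are not groups of the labels and were set with earlier results known, so the *Gdf5* values are a description without a test. *Fgf18*, a growth factor for cartilage, had 80.6 and 18.1 CPM on the same sets, and *Gdf6*, the closest relative of *Gdf5* detected, had 25.2 and 9.06 CPM from 5 and 3 UMIs. *Dcx* had 25.2 and 0 CPM, from 5 UMIs in 3 cells and from none. *Barx1* had 60.5 and 84.5 CPM, *Bmp2* 398 and 408 CPM and *Foxo1* 418 and 402 CPM. The counting intervals of each of these overlapped between the sets, so no direction is read from them.

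The split is a cut through a range, so the members were also read along the share of the 4 transcripts taken by *Clu*, *Cilp* and *1500015O10Rik*. *Creb5* had 8.12 CPM in the 48 cells with a share up to 10%, 26.1 CPM between 10 and 30% and 42.7 CPM between 30 and 50%. It then stood at 456 CPM (Poisson interval 270 to 720 CPM) in the 30 cells between 50 and 70%, and at 293, 468 and 352 CPM in the bins above. The *Erg* counts near the cut were too few to place a change. In the cells between 50 and 70% it had 25.3 CPM (0.641 to 141 CPM), from 1 UMI, while the cells between 30 and 50% had 28.5 CPM (3.45 to 103 CPM) from 2 UMIs on 1 plate, and it had 124 and 181 CPM between 70 and 90% and between 90 and 98%. *Gdf5* had no UMI in the 3 bins below 50%. The bins pool plates and give counting error only, so no order within the articular side is read from them.

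**Figure D2:**
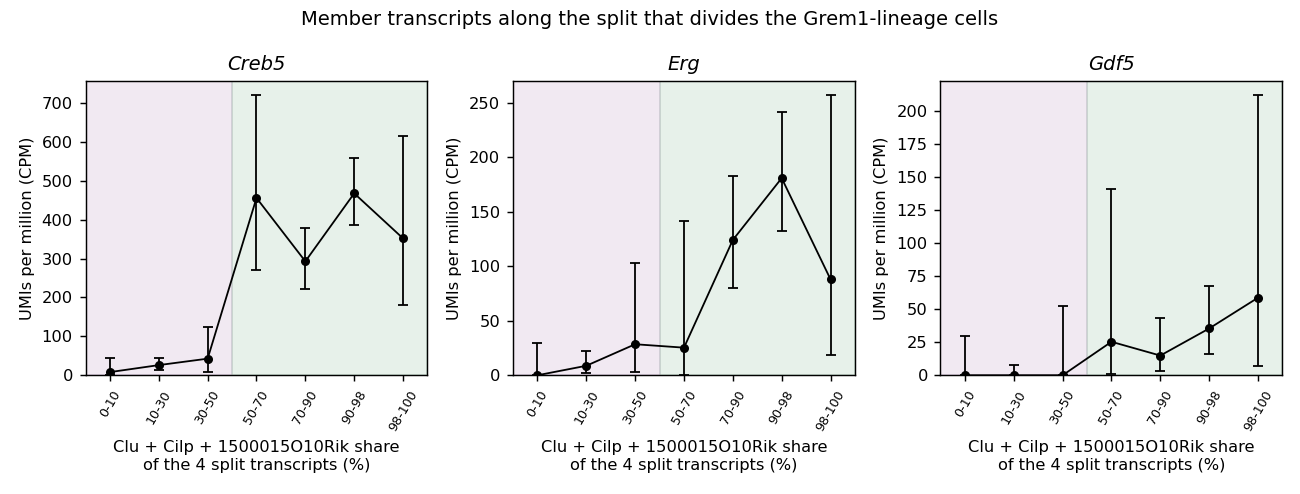
Level of each member (CPM, linear axis) in *Grem1*-lineage cells pooled over plates, binned by the share of the 4 split transcripts taken by *Clu*, *Cilp* and *1500015O10Rik*. Whiskers are 95% Poisson intervals, and the shading separates *Cnmd*-side (left) from articular-side cells. *Creb5* changes from 42.7 to 456 CPM across the cut at 50%, and the *Erg* points on either side rest on 2 UMIs and 1 UMI.

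At equal depth the pooled shares of *Creb5* and *Erg* were again larger on the articular side. Thinned to 796 UMIs, a depth reached by 354 articular-side and 262 *Cnmd*-side cells, *Creb5* was found in 23.7% (19.4 to 28.5%) and 1.53% (0.418 to 3.86%) of cells. *Erg* was found in 11.9% (8.69 to 15.7%) and 0.763% (0.0926 to 2.73%), and *Gdf5* in 2.54% (1.17 to 4.77%) and in 0 of 262 cells, where 3 cells would be 1.15%. By plate, the thinned sums of *Erg* overlapped between the sides, with a lowest articular-side sum of 0 and a highest *Cnmd*-side sum of 64.4 CPM, and were higher on 7 of 8 plates with 1 equal (exact permutation test, p = 0.0156).

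**Figure D3:**
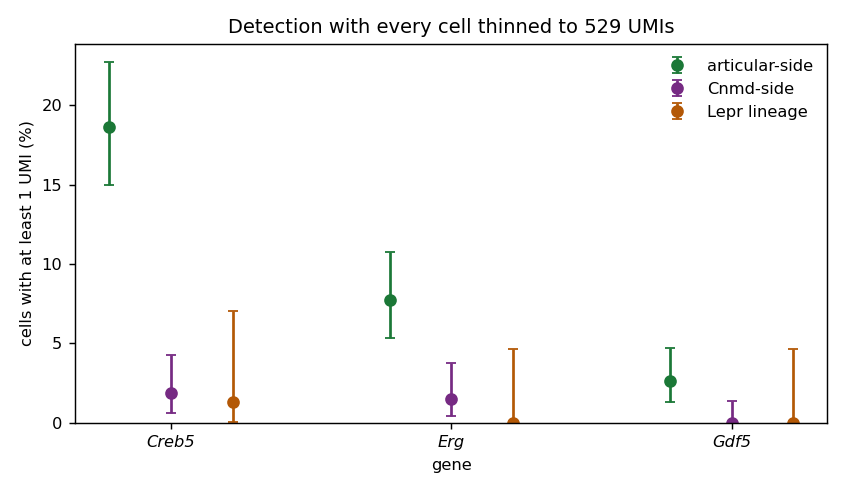
Share of cells with at least 1 UMI of each member (percent, linear axis from 0) after every cell was thinned to 529 UMIs, in articular-side, *Cnmd*-side and *Lepr*-lineage cells. Points are pooled over plates and whiskers are 95% Clopper-Pearson intervals. The articular-side points are 18.6% for *Creb5*, 7.75% for *Erg* and 2.66% for *Gdf5*, and the *Lepr*-lineage intervals reach 7.03% or less.

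Whether the members were found in the same cells was asked within the articular side, at 796 UMIs per cell. *Creb5* and *Erg* were found together in 11 cells, where independent detection on each plate would give 9.81. By plate these were 6 cells on plate 4, 4 on plate 6, 1 on plate 5 and none on the others. The mean log odds ratio over plates, with 0.5 added to each count, was 0.02 ± 1.19 (SD, n = 8), above 0 on 4 plates including plate 1, which held no *Erg* cell at this depth, and did not differ from 0 (exact permutation test, two-sided, p = 0.945). At this depth neither an excess nor a lack of joint detection was found. Without thinning, 24 cells had both transcripts against 19.7 under independence, and 108 had *Creb5* and 40 had *Erg* without the other (p = 0.469, exact permutation test).

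*Creb5* and *Gdf5* were found together in 5 of 9 cells with *Gdf5*, against 2.19 under independence. The log odds ratio averaged 1.36 over plates (p = 0.0078, exact sign-flip permutation test), but on the plates without a *Gdf5* cell the added 0.5 alone gives a positive value. The difference of observed from expected cells, a measure added after the data were seen, averaged 0.352 cells per plate with p = 0.25 in the same exact test, and the 4 plates that hold both transcripts cannot give a p below 0.125. *Erg* and *Gdf5* were found together in 1 cell, against 1.63 under independence, and the same 2 measures gave opposite signs, 1.67 (p = 0.0156) and -0.08 cells per plate (p = 0.25), both in exact permutation tests. No statement on these 2 pairs is drawn. Of the 13 cells with *Gdf5* at full depth, 7 had *Creb5*, 3 had *Erg* and 1 had both.

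**Figure D4:**
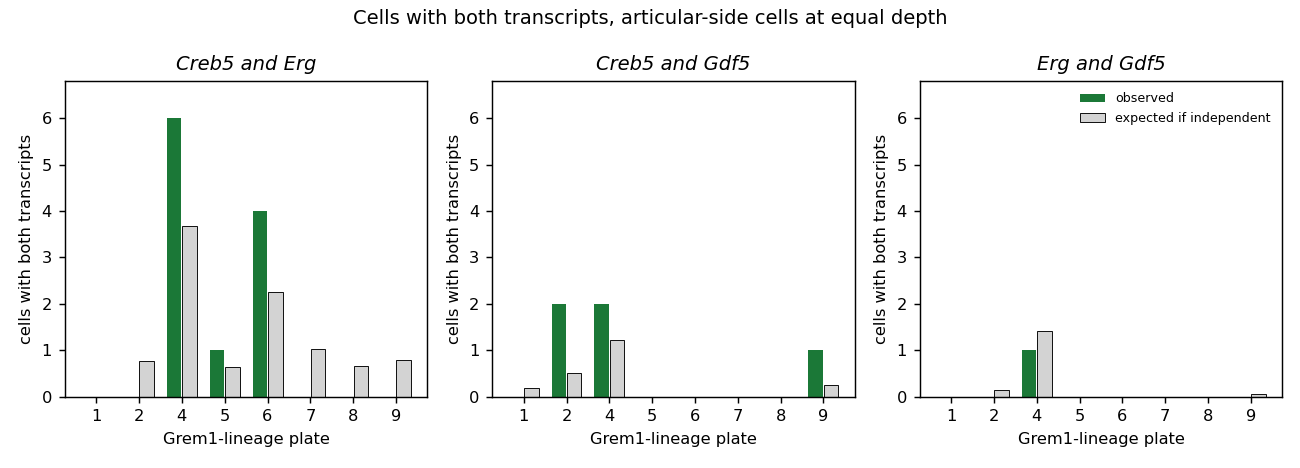
Articular-side cells with UMIs of both members of a pair on each *Grem1*-lineage plate at 796 UMIs per cell, observed (green) and expected from independent detection on that plate (grey), on a linear axis from 0. For *Creb5* and *Erg* plates 4 and 6 hold 10 of the 11 cells, and for *Erg* and *Gdf5* the single cell is on plate 4.

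Articular-side cells with and without *Creb5* were then compared across all other genes at equal depth, in sums of 84 and 270 cells over 8 plates. Of 157 genes 0 were called (0.0%, edgeR adjusted p under 0.05), 4 had an unadjusted p under 0.05, and DESeq2 called 0. At this depth a cell without a *Creb5* UMI may still express the gene, so the groups mix cells that express it. The lack of calls therefore does not exclude differences between cells that express *Creb5* and cells that do not. *Col1a2*, a fibroblast and osteoblast collagen, had a log2 fold change of -1.57 (SE 0.58) with an unadjusted p of 0.014 and an adjusted p of 0.996, so it was not among the genes that passed. For *Erg* only plates 4 and 6 held 5 or more cells with a UMI, and these 2 sums (26 cells) were set against 8. Of 617 genes 0 were called (0.0%), 39 had an unadjusted p under 0.05, and DESeq2 called 0. On simulated counts this edgeR fit recovered 0% of 2-fold and 56.1% of 4-fold changes, so the lack of calls does not exclude such differences. With the plate as a replicate block, *Chil1*, a chitinase-like protein gene named here after its value was seen, was lower in cells with *Erg* (log2 fold change -3.28, SE 0.61, adjusted p = 7.9e-05).

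Between lineages, the *Lepr*-lineage plates were compared with whole *Grem1*-lineage plates, in which 358 genes were higher in the *Lepr* lineage (12.2% of 2944 tested) and 495 lower (16.8%). *Creb5* was lower in the *Lepr* lineage, with a log2 fold change of -3.38 (SE 0.72, edgeR adjusted p = 0.0022). The *Grem1*-lineage plates ran from 84.1 to 266 CPM with a median of 196 CPM, and no *Lepr*-lineage plate reached them (exact permutation test, p = 0.0222, the smallest that 2 against 8 plates allow). The same separation, with both *Lepr*-lineage plates below all others, holds for 4.33% of the 13283 genes with a UMI. Left out in turn, the *Lepr*-lineage plates moved the log2 fold change to -2.48 without plate 1 and to -7.76 without plate 2. Each of these fits has 1 *Lepr*-lineage plate, which is assumed to vary like the *Grem1*-lineage plates, and gives a call (adjusted p = 0.0308 and 0.0038) on that assumption.

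*Erg* was at 0 on both *Lepr*-lineage plates, while the *Grem1*-lineage plates ran from 23.3 to 153 CPM. The pooled *Grem1*-lineage level was 2.84-fold a floor of 3 UMIs over the *Lepr*-lineage cells, 1.37-fold without *Lepr*-lineage plate 1 and 1.47-fold without plate 2. These ratios leave out the counting error of the *Grem1*-lineage level (Poisson interval 54.4 to 85.2 CPM) and its spread between plates. The level on *Grem1*-lineage plate 9, 23.3 CPM, lies below the 24.1 CPM of this floor. *Erg* passed the test (edgeR adjusted p = 0.0116), a call lost without *Lepr*-lineage plate 1 (adjusted p = 0.0687) and without plate 2 (0.0757). *Gdf5* was at 0 too, but its *Grem1*-lineage level of 12.7 CPM is below the 24.1 CPM that 3 UMIs make in the *Lepr*-lineage cells, so a difference was not detectable at this depth (exact permutation test, p = 0.444). With library totals in place of TMM the median log2 fold change of all genes moved from -0.11 to 0.45 and the calls to 773 higher and 288 lower, and *Creb5* stayed lower at -2.83.

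The *Lepr*-lineage cells carried the marrow stroma genes *Cxcl12* (23890 CPM) and *Adipoq* (5221 CPM), which had 33.4 and 4.95 CPM on the articular side, and a higher sum of blood genes (5893 and 7386 CPM, against at most 4212 CPM in any *Grem1*-lineage sum), whose part in the comparison was not tested. With *Cnmd*-side cells alone standing for the *Grem1* lineage, an alternative chosen after the data were seen, the log2 fold change of *Creb5* was -0.35 (SE 1.05, edgeR without the filter, adjusted p = 0.823). With articular-side cells alone it was -4.37 (SE 0.59, adjusted p = 6.5e-05). The low levels of *Creb5* in *Cnmd*-side cells (24.5 CPM pooled, 14.0 to 39.8 CPM) and in *Lepr*-lineage cells (24.1 CPM, 4.98 to 70.5 CPM) had overlapping counting intervals.

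Other joint formation and articular regulators were read from a list of 40 genes, of which 20 were among the genes used. The list includes the members and was chosen with earlier results of these data known, so its counts are a description. In the comparison of the sides 5 were tested, 4 were higher on the articular side and none lower, where 20% of all genes tested were higher and 21.5% lower, with a median log2 fold change of 1.97 beside -0.01 for all genes. Besides *Creb5* these were *Bmp2*, a bone morphogenetic protein (log2 fold change 3.46, SE 0.39), *Foxo1*, a forkhead factor that maintains cartilage (1.97, SE 0.26), and *Enpp1*, which makes pyrophosphate (1.38, SE 0.19), all at an adjusted p of at most 9.5e-06 by edgeR. *Foxo3* (0.59, SE 0.33) had an adjusted p of 0.158, and of 0.0035 with the plate as a replicate block.

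Of the regulators that the filter removed, *Barx1*, a homeobox gene of the joint region, had a mean of 75.7 CPM on the articular and 10.3 CPM on the *Cnmd* side and was higher on 8 of 8 plates, as *Creb5* and *Erg* were. Being higher on every plate holds for 1.61% of the genes with a UMI. *Fgf18* had 41.5 and 1.62 CPM and was higher on 7 plates. *Ctnnb1*, which encodes the Wnt effector beta-catenin, had 45.8 and 103 CPM, and *Dact2* had no UMI. In the comparison of lineages 12 of the list were tested, 7 were lower in the *Lepr* lineage and none higher, where 16.8% of all genes tested were lower and 12.2% higher, with a median of -2.31 beside -0.11 for all genes. These were *Creb5*, *Erg*, *Barx1*, *Enpp1*, *Bmp2*, *Foxo1* and *Foxo3*. *Cd44*, a hyaluronan receptor, had a mean of 408 CPM in the *Lepr* lineage (700 and 117 CPM on its plates), against 99.8 CPM on the articular and 55.03 CPM on the *Cnmd* side, with an adjusted p of 0.0524 between lineages.

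**Figure D5:**
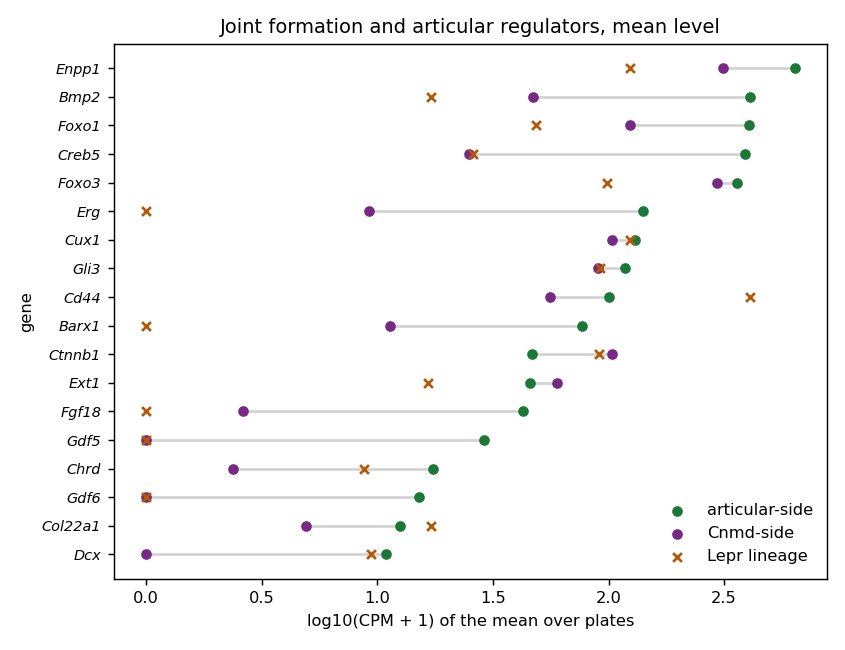
Mean level of the detected genes of the joint formation and articular list, as log10(CPM + 1) of the mean over plates (a log axis), in articular-side (green), *Cnmd*-side (purple) and *Lepr*-lineage (cross) sums. Most genes lie higher on the articular side, and *Ctnnb1* and *Ext1* lie higher on the *Cnmd* side.

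The receptors through which GDF5 signals were at low levels. *Bmpr1b*, the type I receptor with the highest affinity for GDF5, had 5 UMIs on the articular side, 3 on the *Cnmd* side and 0 in the *Lepr* lineage. *Bmpr1a* had 51.9, 35.1 and 123 CPM and the type II receptor *Bmpr2* had 135, 82.6 and 163 CPM in the same order. None of the 6 listed receptors passed the filter between the sides, and of the 3 tested between lineages none was called.

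Relatives of the members were read in the same way. *Atf2* and *Atf7*, nearest to *Creb5*, had 50.5 and 60.7 CPM on the articular side and 27.9 and 43.7 CPM on the *Cnmd* side, and neither passed the filter. They were higher on 7 and 6 of 8 plates. Of 9 CREB and ATF genes tested between the sides *Creb5* was the one called higher and *Fosb* the one called lower (-0.97, SE 0.30, adjusted p = 0.0149). Among all genes tested 20% were higher and 21.5% lower. With the plate as a replicate block *Crebbp* was also higher (adjusted p = 0.0046), and *Atf3* (0.0368) and *Fos* (0.0495), which are early-response genes, were also lower. Between lineages 18 were tested, *Atf1* was higher and 11 were lower in the *Lepr* lineage (12.2% and 16.8% of all genes tested). Among ETS genes *Fli1*, the closest relative of *Erg*, had 55.2 and 29.3 CPM, *Fev* had no UMI, and *Ets1* was tested between the sides and not called (0.22, adjusted p = 0.476). *Ets1*, like *Erg*, was lower in the *Lepr* lineage (-2.75, SE 0.54, adjusted p = 0.0013), and these were 2 of 8 ETS genes tested, beside 16.8% of all genes. *Etv5* (92.5 and 22.5 CPM) and *Ets2* (88.4 and 29.5 CPM) were higher on the articular side of 8 of 8 plates, without passing the filter.

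Of the 10 GDF genes *Gdf1* and *Gdf7* had no UMI. *Gdf6* had 8 UMIs, all on the articular side and on 4 plates, and none elsewhere. *Gdf10*, the one GDF gene tested between the sides, was not called (-0.43, adjusted p = 0.215), and was lower in the *Lepr* lineage (-2.82, SE 0.58, adjusted p = 0.0018). *Gdf15*, a stress-response ligand, had 4 UMIs on the articular and 37 on the *Cnmd* side, where 1 plate reached 400.0 CPM.

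The genes whose levels followed each member most closely were sought over the 18 sums, as Pearson correlations of log2(CPM + 1) among 2604 genes (2605 for *Gdf5*) with a mean of at least 50 CPM. The sums share plates and the difference between the groups, so r is a description. For *Creb5* they were *Angptl7* (r = 0.891), *Dst* (0.827), *Gas1* (0.816), *Chst5* (0.809) and *Cst3* (0.806). For *Erg* they were *Foxo1* (0.923), *Crim1* (0.883), *Btbd3* (0.857), *Ank* (0.846) and *Cd200* (0.845). For *Gdf5*, with 14 sums at 0, they were *Fuca1* (0.776), *Fxyd1* (0.751), *Arl6ip5* (0.749), *Ctsk* (0.748) and *Cryab* (0.745). *Creb5* and *Erg* had r = 0.553 with each other, below the genes named for either.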

How the data were processed

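The authors deposited raw UMI counts per gene and well, without normalisation. The submitters' processing notes name UMI-tools, STAR, featureCounts, SAMtools and Seurat, without versions or order, and mm10. The *Grem1*-lineage table used here ends after 29183 complete genes, and both lineages were analysed over these, so *Grem1*, *Prg4* and *Lepr* were not analysed. Of their symbols 97.2% matched GENCODE (GRCm38). The members and lists were chosen with earlier results of these data known.

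Wells with fewer than 350 detected genes were left out, and no doublet caller was run. Kept cells were summed per plate and group (at least 10 cells, or 5 for cells with and without a member). edgeR 4.0.16 in R 4.3.3 was used with TMM, filterByExpr, a quasi-likelihood test and Benjamini-Hochberg adjustment at 0.05, with the 4 split genes left out, and DESeq2 1.42.0 as an alternative. SEs are the log2 fold change over the square root of F, and approximate. Printed CPM are from totals without TMM. For *Erg* and *Gdf5*, which the filter removed, exact permutation tests over plates (scipy 1.17.1) on log2(CPM + 1) replaced the fit. Cells were thinned to 796 UMIs (the 10th percentile in the *Grem1* lineage) or 529 (over all kept cells). A floor is 3 counts over a group. Named were the members, list genes that passed a test or are nearest relatives, and the 5 genes most alike by correlation. *Barx1*, *Fgf18*, *Dcx*, *Ctnnb1*, *Cd44*, *Dact2*, *Foxo3*, *Etv5*, *Ets2*, *Gdf15*, *Col1a2* and the marker genes were named after their values were seen.

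Articular-side and *Cnmd*-side sums are paired by plate: deviations of the same plate correlated with r between 0.192 and 0.453 (mean 0.304, above 0.1 on 8 of 8 plates) and of different plates with a mean of -0.0432. The main edgeR fit between the sides has no plate term and does not use this pairing. It called 442 genes, and the fit with the plate as a replicate block called 501. The fits and the joint detection were tested on simulated counts. Of 2-fold changes edgeR recovered 84% between the sides, 83.9% with against without *Creb5*, and 0% both between lineages and with against without *Erg*. Of 4-fold changes it recovered 60.5% between lineages and 56.1% for *Erg*. Without a true association, the log odds test gave p under 0.05 in 7.5% of draws for *Creb5* and *Erg*. For *Creb5* and *Gdf5* this was 61%, and for *Erg* and *Gdf5* 98%. Alternatives were another normalisation or tool, no filter, thinning, other splits and cell minimums, plates left out or in sets, and the plate as a block.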

Additional observations from a re-analysis of the deposited data

Results flagged for a closer look

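In all, 16 sets of plate values were examined, with levels and shares of cells counted apart. *Erg* on the *Cnmd* side of plate 6 lay far above the other 7 plates, with 43.7 CPM from 4 UMIs and with 7.50% of cells carrying a UMI. The next plate had 12.5 CPM. Chance marks about 1 in 20 such groups, and both values rest on the same 3 cells. The articular-side level of *Erg* on plate 6 was 215 CPM, the second highest.

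The 84 *Grem1*-lineage wells left out for too few genes held 11 UMIs of *Creb5* in 10 wells, above the 3 counts that a count of 0 allows. These wells enter only the alternatives with no minimum of detected genes. All 10 wells fell on the articular side of the split, where the 67 wells had 348 CPM, and the 17 wells on the *Cnmd* side had none. A floor of 3 UMIs over these 17 wells is 367 CPM, so their 0 does not tell the sides apart. The same wells held 1 *Gdf5* UMI on each side. The articular-side wells left out had a median of 503 UMIs.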

How the results depend on the processing

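*Creb5* stayed called between the sides under the 20 alternatives fitted with the filter, with log2 fold changes of 4.09 to 4.47 when each plate was left out. Without the filter, where p-values are not read, it was 4.07, and 4.48 after thinning. *Erg* kept its direction in all alternatives, with 5.70 on plates 1, 2 and 4 (p = 0.25) and 5.22 on plates 5 to 9 (p = 0.0625), the smallest p these exact tests can reach. For *Gdf5* (2.75) fits without the filter gave 4.26 with DESeq2 size factors, 4.16 with library totals, 4.19 without the filter, 4.01 with the plate as a replicate block and 4.20 without the 20 most abundant genes, all past the threshold but with p-values that are not read. The exact test gave 6.00 on plates 1, 2 and 4 (p = 0.25) and 0.80 on plates 5 to 9 (p = 1.0), 2.74 (p = 0.0625) with no gene minimum and 2.30 (p = 0.125) with *Clu* left out of the split. Calls between the sides were 705 without the filter, 178 after thinning and 241 on plates 1, 2 and 4 (442 as reported), and 375 to 439 with a plate left out. The block changed no other call of a member.

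Between lineages (853 genes) calls numbered 489 on plates 1 and 2 with the replicate block and 451 without it, and 529 to 850 with a plate left out. Plates 1 and 2 share only a number there (r = 0.0552). *Creb5* was at -0.35 against *Cnmd*-side cells. *Erg* (-6.26) was at -2.80 against *Cnmd*-side cells, -5.20 on plates 1 and 2 with the block and -5.20 without it, none called. With a plate left out it ran from -6.36 to -6.01, and lost its call without either *Lepr*-lineage plate (-6.32 and -6.32).

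With *Creb5* 20 genes were called without the filter, and with *Erg* 14 without it, 1 with the block and 0 to 2 with a plate left out (*Dcaf17* and *Dnajc11* without plate 4, which leaves 1 sum, assumed to vary like the others). Joint detection of *Creb5* and *Erg* ranged from -0.18 to 0.21 with a plate left out and was -0.26 on plates 5 to 9, 0.69 at the median depth (8 cells against 5.48, exact permutation p = 0.211) and 0.67 over all *Grem1*-lineage cells (11 against 6.21, exact permutation p = 0.141). *Creb5* with *Gdf5* was 1.33 on plates 1, 2 and 4, 1.37 on plates 5 to 9 and 0.352 cells as observed minus expected. *Erg* with *Gdf5* was 1.26, 1.91 and -0.079 cells by the same 3, and the Mantel-Haenszel log odds ratio was -0.69. No value could be had for joint detection in *Cnmd*-side cells, or for *Erg* with *Gdf5* at the median depth, since no plate held both. The alternatives with library totals, with 1 side of the split alone and with observed minus expected cells were chosen after seeing the data. The cause of these changes was not tested. A median of 505 UMIs in the *Lepr* lineage limits what is found there.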
